A study of Mus musculus with 56 samples.

Results

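Gene expression in the brains of inbred mouse strains of Swiss origin was set against that of strains of the Castle lineage, in prefrontal cortex, a region of executive control, and in nucleus accumbens, a reward region in ventral striatum. Arrays were chosen by their strain label alone: FVB/NJ, SJL/J and SWR/J made up the Swiss-derived group, and A/J, BALB/cByJ, C3H/HeJ, CBA/J and DBA/2J the Castle-lineage group. This gave 16 of the 56 arrays of the study, 6 Swiss-derived and 10 Castle-lineage, and the other 40 arrays were from other strains. Every strain had 1 array per region, so each region compared 3 Swiss-derived with 5 Castle-lineage arrays. Per the labels, each array held RNA pooled from 3 untreated males of 1 strain aged 8 to 10 weeks, and per the design text cortex and accumbens were cut from neighbouring slices of the same animals. With 1 pool per strain, a difference between strains and a difference between pools cannot be told apart, and p-values measure the spread between strains. The number of arrays limits the precision.

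Swiss mice descend from a small albino stock that was carried from Switzerland to the United States, and FVB/NJ, SJL/J and SWR/J were all bred from it. The Castle-lineage strains go back to fancy mice kept by the first mouse geneticists in the United States. BALB/c mice came from the Bagg albino stock, C3H and CBA were founded from crosses of Bagg albino and DBA mice, and the A strain from a cross of Bagg albino with another albino stock. Strains of common descent carry the same alleles over many stretches of the genome, so a gene can differ between lineages through its own alleles or through a change elsewhere. A short array probe can also read low where a strain's sequence differs under it. Whether a low value below was low RNA or a poorer match to the probes was not tested, beyond setting a gene's probe sets side by side.

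Both regions carried the neuronal markers of their label, and 2 of the 16 arrays stood apart. The 16 medians of the intensity lay between 10.065 and 10.427 in cortex and between 9.793 and 10.14 in accumbens. The mean of 20 medium spiny neuron genes minus that of 16 cortical excitatory neuron genes lay between -3.25 and -3.05 log2 units in the 8 cortex arrays. In accumbens it lay between 3.23 and 4.61 in 7 arrays and at 1.74 in BALB/cByJ. Drd2, a receptor gene of spiny neurons, lay at 2.65 to 3.12 in cortex and 6.73 to 8.88 in accumbens, and Neurod6, a gene of cortical excitatory neurons, at 8.71 to 9.75 and 2.84 to 4.06. The BALB/cByJ accumbens array had a spiny neuron list mean of 7.18, against 9.70 to 10.07 in the other accumbens arrays of the comparison. Its septum and ventral forebrain list, 6 genes, was at 8.01, the highest of the Castle-lineage arrays, which had a median of 6.76. The rise was not particular to that list. Its astrocyte (9.57), oligodendrocyte (9.47), interneuron (7.89), endothelial and mural (6.565) and choroid plexus and meninges (6.95) lists were also the highest of the 8 accumbens arrays. Its microglia list (6.86) was not, and its cortical neuron list (5.44) was the lowest. The SJL/J accumbens array, with the score of 3.23, had a cortical neuron list mean of 6.56, against a Swiss-derived median of 5.60. Counts without each of these arrays stand beside the counts with them, and the part of tissue make-up in the results was not tested beyond that. In bulk tissue, fewer cells of a type and less RNA per cell cannot be told apart.

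**Figure D1:**
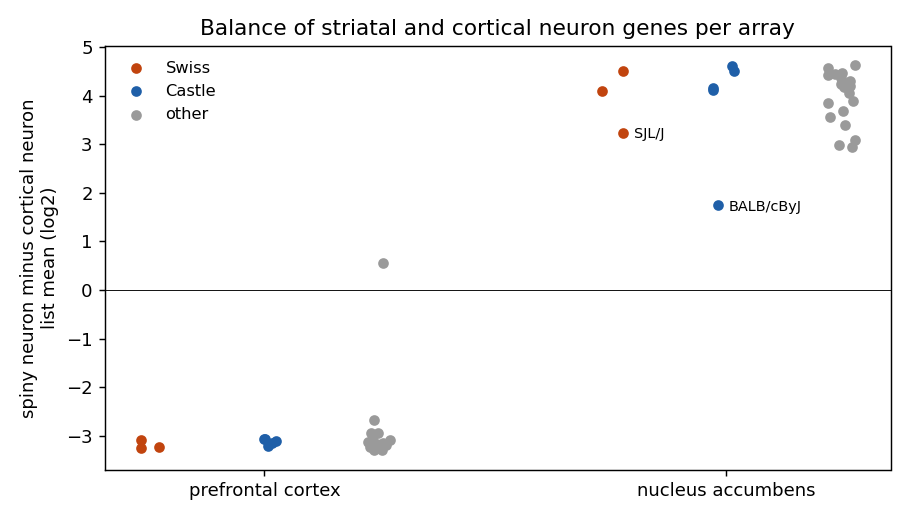
Each point is 1 array, plotted as the mean log2 intensity of 20 medium spiny neuron genes minus that of 16 cortical excitatory neuron genes, by region and strain group. The BALB/cByJ accumbens array lies at 1.74 and the SJL/J accumbens array at 3.23. Among the other strains the MA/MyJ cortex array lies at 0.56, apart from all other cortex arrays.

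The first question was which genes separated the lineages in both regions. Of 10684 features (8811 named genes and 1873 unnamed probe sets), 20 had all Swiss-derived arrays above all Castle-lineage arrays in cortex and again in accumbens, which is 0.187% of the features, and 41 had all Swiss-derived arrays below, which is 0.384%. Within 1 region such separation was more common, at 560 features in cortex (5.24%; 332 above and 228 below) and 339 in accumbens (3.17%; 148 above and 191 below). In 4 features the arrays separated in both regions but in opposite directions. Among the 61 features, 36 had 1 gene symbol, 13 above and 23 below. Without the BALB/cByJ accumbens array the 61 features became 101 (47 above and 54 below), and without the SJL/J accumbens array 73 (27 and 46). With fewer arrays no separated feature can be lost and more features separate, both by construction. All 61 therefore stayed when any single strain was left out, which is no check on them. The count rose to between 74 without C3H/HeJ (29 above and 45 below) and 213 without FVB/NJ (116 above and 97 below). The excess of features that lay below turned around without FVB/NJ and without BALB/cByJ (154 features; 86 above and 68 below). It held in the other 6 counts without 1 strain, at 130 without SJL/J (52 and 78), 159 without SWR/J (75 and 84), 99 without A/J (40 and 59), 93 without CBA/J (37 and 56), 91 without DBA/2J (35 and 56) and the 74 above.

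The test over strains called fewer features. On strain means (each strain's log2 values averaged over both regions) limma called 24 features at an adjusted p under 0.05, or 0.225% of those tested, with 4 higher in Swiss-derived strains (0.0374%) and 20 lower (0.187%). At an unadjusted p under 0.05 there were 608 features (5.69%). Of the 61 separated features 21 passed this test (34.4%), and 21 of the 24 called features were separated in both regions (87.5%). Separation and test used the same arrays and groups, so neither is independent support for the other. Within cortex alone limma called 21 features (0.197%; 5 higher and 16 lower) and within accumbens alone 6 (0.0562%; 1 higher and 5 lower). Without the BALB/cByJ accumbens array the accumbens count was 13, and without SJL/J, or without the SJL/J accumbens array only, it was 0, as it was without FVB/NJ. The strain-mean count was 33 and 19 without the BALB/cByJ and the SJL/J accumbens array. With the strain-to-strain spread estimated over all 27 paired strains instead of these 8, limma called 1 feature on strain means and 0 in accumbens. None of the 9 named genes called on strain means passed in that strain-mean fit. With the spread estimated over these 8 and all 21 other strains with a cortex array, 7 features were called in cortex.

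**Figure D2:**
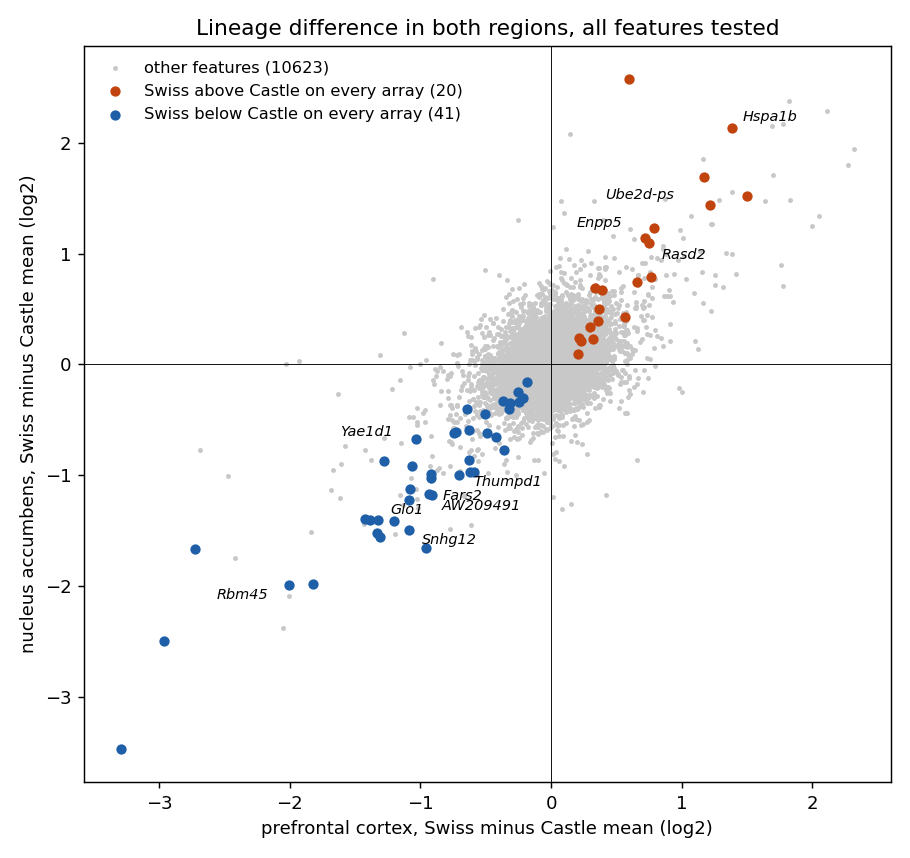
Each point is 1 of 10684 features, plotted as the Swiss-derived minus Castle-lineage mean (log2) in prefrontal cortex on the x axis and in nucleus accumbens on the y axis. Coloured points are the 20 features with every Swiss-derived array above and the 41 with every Swiss-derived array below every Castle-lineage array in both regions, which fixes their quadrant. Hspa1b lies far up on the diagonal and Rbm45 far down.

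Hspa1b had the widest difference among the named genes that lay higher in Swiss-derived strains. It encodes an inducible HSP70 chaperone, which refolds damaged proteins and is switched on by heat shock factor through heat shock elements in its promoter. The RefSeq promoter of the gene is printed here to show where a match to such an element lies. It spans 250 bases before to 50 after the start, at chr17:34959189-34959488 on the minus strand of GRCm38.p6, the C57BL/6J reference and not the sequence of any strain compared here. Capitals mark the single match to the heat shock element GAANNTTC, at bases 147 to 154.
Hspa1b promoter: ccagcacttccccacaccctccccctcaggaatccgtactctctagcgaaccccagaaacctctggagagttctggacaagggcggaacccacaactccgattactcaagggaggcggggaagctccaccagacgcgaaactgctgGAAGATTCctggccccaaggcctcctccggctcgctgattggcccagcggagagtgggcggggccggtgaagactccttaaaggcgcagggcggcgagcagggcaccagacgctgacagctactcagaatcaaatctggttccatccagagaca
The motif was searched on both strands, and 7.86% of 32851 RefSeq promoters of the same length held it. Among the 28 member genes with a promoter in the table, those of Rbm45, Adgra3, Dhrs7b and Slc30a3 also held 1 match. A match is a description of the letters only.

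In cortex, the Hspa1b log2 intensity was 8.32 in FVB/NJ, 7.23 in SJL/J and 8.25 in SWR/J. The Castle-lineage cortex arrays read 6.19 in A/J, 6.54 in BALB/cByJ, 6.65 in C3H/HeJ, 6.47 in CBA/J and 6.90 in DBA/2J. SJL/J was the lowest of the Swiss-derived strains, but the groups did not overlap. In accumbens the Swiss-derived arrays read 6.44, 5.93 and 7.32 in the same order, and the Castle-lineage arrays lay between 4.05 and 4.87, below log2 5, the level used to filter dim features. On strain means Hspa1b was 1.76 log2 units higher in Swiss-derived strains (SE 0.25; 3.38-fold; limma adjusted p = 0.031). With values under log2 5 raised to that level the difference was 1.47 and no longer passed (limma adjusted p = 0.068), and without the SJL/J accumbens array it did not pass either (limma adjusted p = 0.145). It passed without BALB/cByJ or without SJL/J (0.037 and 0.010) and in none of the other 6 fits without 1 strain. The other bright probe sets of the gene, 1427126_at and 1427127_x_at, were also separated in both regions, by 1.57 and 1.32 in cortex and by 1.98 and 2.39 in accumbens. Hspa1b has a near-identical partner, Hspa1a, and the share of either gene in these probe sets is uncertain.

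The pseudogene Ube2d-ps, related to a family of ubiquitin-conjugating enzymes, had the lowest adjusted p of the genes higher in Swiss-derived strains. Its cortex values were 6.32 in FVB/NJ, 6.34 in SJL/J and 5.59 in SWR/J, against 5.05 in A/J, 4.71 in BALB/cByJ, 4.91 in C3H/HeJ, 4.75 in CBA/J and 4.93 in DBA/2J. The accumbens arrays of these strains read 5.98, 6.10 and 5.73, and the Castle-lineage arrays lay between 4.33 and 4.59. The groups were well apart in both regions, with the Castle-lineage arrays near or under the level of the filter. On strain means the difference was 1.33 (SE 0.13; 2.51-fold; limma adjusted p = 0.0046), and it passed in each of the 8 fits that left out 1 strain. All Castle-lineage arrays but that of A/J cortex lay under log2 5, and with values under log2 5 raised to it the difference was 1.00 (limma adjusted p = 0.017). A second probe set of the gene, 1438285_at, with means between 2.09 and 2.57 and so far below the filter, lay lower in Swiss-derived strains, by 0.44 in cortex and 0.42 in accumbens.

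Enpp5, a membrane protein of the ectonucleotide pyrophosphatase family, was the third named gene that passed. It read 8.52 in FVB/NJ, 8.44 in SJL/J and 8.26 in SWR/J in cortex, and 7.80, 7.67, 7.47, 7.81 and 7.66 in A/J, BALB/cByJ, C3H/HeJ, CBA/J and DBA/2J. Swiss-derived accumbens arrays read 9.64, 9.11 and 8.87 and the Castle-lineage arrays 7.84 to 8.45. Neither region showed overlap, and the strain-mean difference was 0.93 (SE 0.12; 1.91-fold; limma adjusted p = 0.018). Without SJL/J, A/J, C3H/HeJ, CBA/J or DBA/2J in turn the adjusted p lay between 0.051 and 0.090 (limma). Other strains lay at both levels: Enpp5 read 8.27 and 9.53 in NON/LtJ cortex and accumbens, and 7.63 and 8.43 in I/LnJ. With no filter on dim features the limma calls of Enpp5 and Hspa1b were lost (adjusted p = 0.086 and 0.213), and Ube2d-ps passed (0.033). The probe set 1441762_at, without a single gene name, was the other feature higher in Swiss-derived strains, by 1.58 (limma adjusted p = 0.030). It stood at 6.13 to 7.11 in Swiss-derived and 3.33 to 4.76 in Castle-lineage accumbens arrays, and at 2.15 to 3.20 in all cortex arrays, far below the filter level.

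The other 10 named genes that lay above in both regions did not pass limma on strain means. Per2, a negative arm component of the circadian clock, had the widest gap between groups among them. It read 6.44, 6.67 and 6.62 in the cortex of FVB/NJ, SJL/J and SWR/J, and 6.16, 6.14, 6.08, 5.95 and 5.29 in the Castle-lineage strains in the order above. In accumbens the Swiss-derived arrays read 6.98, 7.13 and 6.84 and the Castle-lineage arrays 6.51, 5.40, 6.45, 6.43 and 6.41. The low Castle-lineage arrays were those of DBA/2J in cortex and BALB/cByJ in accumbens. The strain-mean difference was 0.70 (SE 0.15, limma adjusted p = 0.25), and the accumbens difference went from 0.74 to 0.53 without the BALB/cByJ accumbens array.

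Rasd2 (Rhes), a small GTPase enriched in striatal neurons, read 7.46, 7.06 and 7.80 in Swiss-derived cortex arrays and 6.602 to 6.994 in Castle-lineage ones. In accumbens the Swiss-derived arrays read 10.98, 10.51 and 10.14, and the Castle-lineage arrays 10.09 in A/J, 7.47 in BALB/cByJ, 10.06 in C3H/HeJ, 10.10 in CBA/J and 9.48 in DBA/2J. SWR/J and CBA/J were 0.036 apart. The accumbens difference was 1.10 with the BALB/cByJ array, where the spiny neuron list was low as a whole, and 0.61 without it. The second Rasd2 probe set, 1427343_at, was separated in both regions too, by 1.47 in cortex and 1.80 in accumbens. On strain means Rasd2 differed by 0.92 (limma adjusted p = 0.57).

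The remaining 8 genes that lay above had strain-mean differences between 0.15 and 0.78, and limma adjusted p values between 0.48 and 0.88. They were the detoxifying cytochrome P450 gene Cyp2d22 (0.78), the transcription factor genes Sox21 (0.53) and Pou3f1 (0.51), the nuclear receptor coactivator gene Ncoa3 (0.49) and the synaptic vesicle zinc transporter gene Slc30a3 (0.32). The others were the cohesin regulator gene Pds5b (0.22), Herpud2 (0.22), related to a protein of endoplasmic reticulum quality control, and the Golgi SNARE gene Stx5a (0.15). Slc30a3 lay at 4.49 to 5.29 in accumbens and was bright in cortex only. Without FVB/NJ the Cyp2d22 difference was 0.46, and with values under log2 5 raised to it 0.48. Stx5a rests on a probe set whose type can match several transcripts, and without such probe sets its difference was -0.04. The lowest Swiss-derived and highest Castle-lineage arrays of Herpud2 were 0.0048 apart in cortex. Other bright probe sets of Pds5b, Herpud2 and Pou3f1 overlapped between the groups in both regions.

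**Figure D3:**
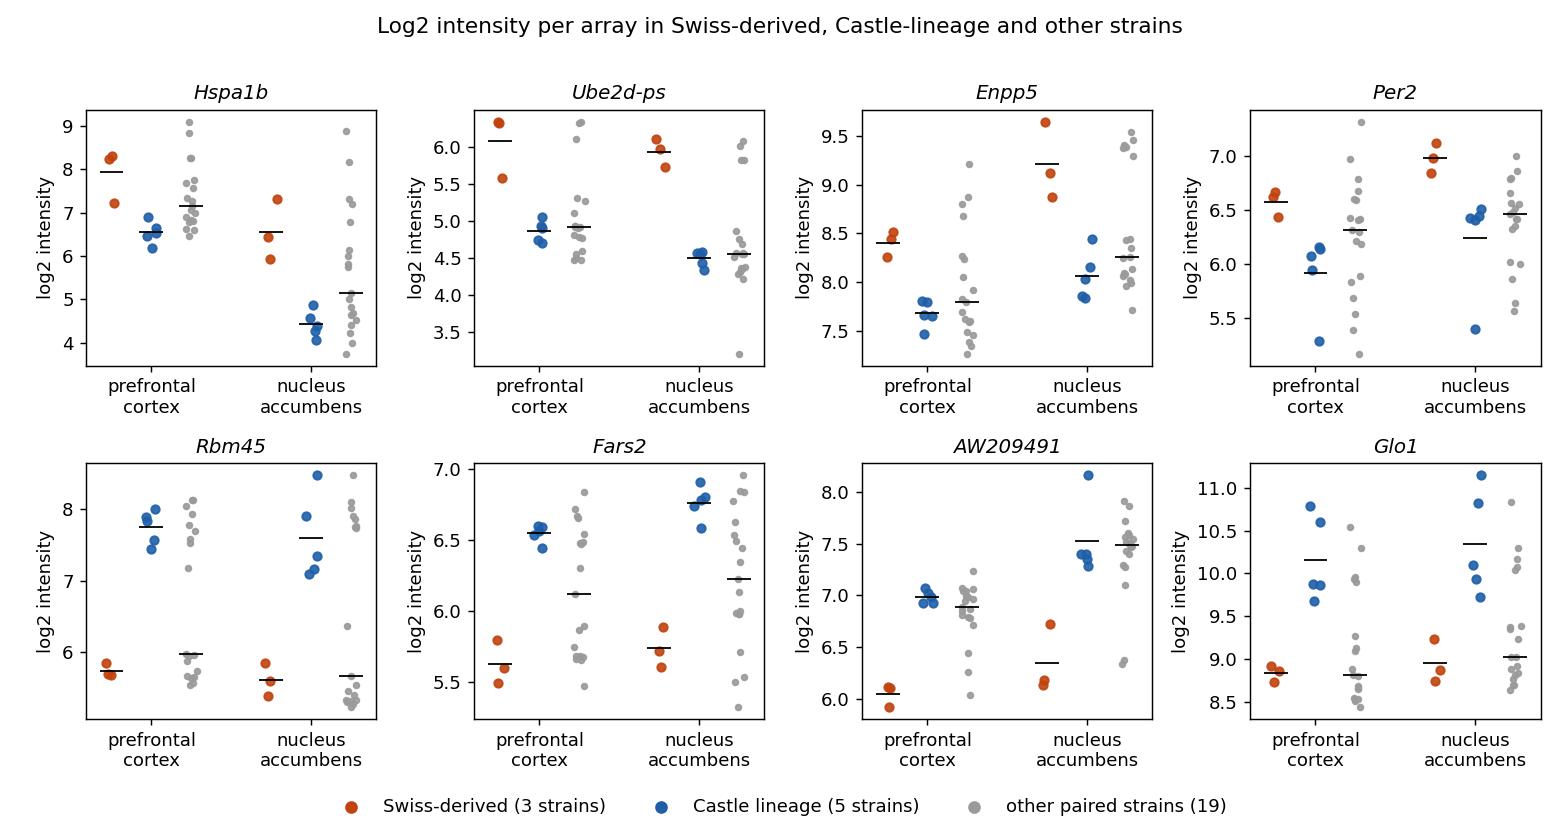
Log2 intensity of 8 genes in every array of the paired strains, by region. Red points are Swiss-derived and blue points Castle-lineage strains, with a line at the mean, and grey points are the 19 other paired strains, with a line at the median. The red and blue points do not overlap in any panel, while grey points reach both levels in every panel. Few grey points lie at the Swiss-derived level for AW209491 and Ube2d-ps.

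Among the genes lower in Swiss-derived strains, Rbm45, an RNA-binding protein gene, had the largest difference. Its cortex values were 5.69 in FVB/NJ, 5.67 in SJL/J and 5.85 in SWR/J, against 7.89 in A/J, 7.45 in BALB/cByJ, 7.83 in C3H/HeJ, 7.57 in CBA/J and 8.01 in DBA/2J. In accumbens the Swiss-derived arrays read 5.59, 5.85 and 5.38 and the Castle-lineage arrays 7.17, 7.90, 7.09, 7.35 and 8.48. The nearest arrays of the groups were 1.59 log2 units apart in cortex and 1.24 in accumbens. On strain means the difference was -2 (SE 0.18; 4-fold lower; limma adjusted p = 0.0027). The 19 other paired strains held both levels: 10 lay nearer the Swiss-derived mean and 9 nearer the Castle-lineage mean, over a range from 5.40 to 8.09.

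Fars2, which charges phenylalanine onto the tRNA of mitochondria, was lower by a similar margin in both regions. It read 5.80, 5.60 and 5.49 in FVB/NJ, SJL/J and SWR/J cortex, and 6.539, 6.443, 6.602, 6.596 and 6.563 in A/J, BALB/cByJ, C3H/HeJ, CBA/J and DBA/2J. Swiss-derived accumbens values were 5.72, 5.61 and 5.89 and the Castle-lineage values 6.80, 6.74, 6.58, 6.91 and 6.78. The Castle-lineage strains were close together, with an SD of 0.064 in cortex and 0.12 in accumbens. The strain-mean difference was -0.97 (SE 0.079; limma adjusted p = 0.0019), and Fars2 also passed within cortex (limma adjusted p = 0.0057) and within accumbens (0.030). A second probe set, 1439406_x_at, at means of 4.85 to 5.52, did not show it, with differences of 0.30 in cortex and -0.07 in accumbens.

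AW209491, a gene named only by an expressed sequence, read 6.11, 6.12 and 5.92 in Swiss-derived cortex arrays and 7.07, 6.92, 6.98, 6.93 and 7.02 in Castle-lineage ones. In accumbens the values were 6.14, 6.18 and 6.73 against 7.29, 8.16, 7.35, 7.40 and 7.40, the 8.16 being BALB/cByJ. It was 1.05 lower on strain means (SE 0.11, 2.07-fold; limma adjusted p = 0.0064). Yae1d1, a factor of iron-sulfur protein assembly for ribosome recycling, read 5.98, 6.05 and 5.62 in Swiss-derived cortex against 6.64 to 7.38, and 5.79, 5.78 and 5.69 in accumbens against 6.20 to 6.59. Its strain-mean difference was -0.86 (SE 0.099; limma adjusted p = 0.012). Rbm45, Fars2, AW209491 and Yae1d1 each passed in all 8 fits that left out 1 strain, and none of the 4 passed with the spread estimated over the 27 paired strains (limma adjusted p = 0.49, 0.31, 0.070 and 0.12). With no filter on dim features all 4 passed (limma adjusted p = 0.0024 for Fars2 and 0.033 for the others).

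A further 2 named genes passed on strain means. Mrpl9, a protein of the large mitochondrial ribosomal subunit, differed by -0.68 (SE 0.098; limma adjusted p = 0.035). Thumpd1, an RNA-binding adaptor of tRNA modification, differed by -0.85 (SE 0.13; limma adjusted p = 0.040). Of the 8 fits without 1 strain, both passed only in that without BALB/cByJ (limma adjusted p = 0.039 and 0.0071), and without the BALB/cByJ accumbens array alone Thumpd1 did not pass (0.070). Neither passed with every kept probe set (limma adjusted p = 0.053 for Mrpl9 and 0.058 for Thumpd1) or with no filter on dim features (0.087 and 0.164). Without probe sets of types that can match several transcripts Mrpl9 differed by -0.57 and did not pass (limma adjusted p = 0.202). Thumpd1 also failed after quantile normalization again (limma adjusted p = 0.0585), after centring on the median (0.061) and without the SJL/J accumbens array (0.102). The second Mrpl9 probe set 1427297_at was separated in both regions, and 1430976_a_at had the same direction with overlap. For Thumpd1, 16 of the 19 other strains lay nearer the Swiss-derived mean.

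Glo1, which detoxifies methylglyoxal, lies in a segment known to be duplicated in some inbred strains. Its cortex values were 8.86 in FVB/NJ, 8.73 in SJL/J and 8.92 in SWR/J, against 10.60 in A/J, 10.79 in BALB/cByJ, 9.86 in C3H/HeJ, 9.88 in CBA/J and 9.68 in DBA/2J. The accumbens values were 8.74, 8.87 and 9.23 against 10.82, 11.15, 9.73, 9.94 and 10.10. Within the Castle lineage A/J and BALB/cByJ lay above C3H/HeJ, CBA/J and DBA/2J in both regions, and with that spread the strain-mean difference of -1.36 (SE 0.28; 2.58-fold) did not pass (limma adjusted p = 0.24). All 3 other bright probe sets of Glo1 were separated in both regions too, with differences between -1.92 and -1.43 in cortex and between -2.03 and -1.47 in accumbens. Of the other strains 14 lay nearer the Swiss-derived and 5 nearer the Castle-lineage mean. Btbd9, the other measured gene of the duplicated segment, differed by -0.14 and its groups overlapped.

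The other 16 named genes that lay below did not pass on strain means. Tmem181a (-1.41) and the small nucleolar RNA host gene Snhg12 (-1.29) had the largest differences. FVB/NJ was the low strain in both: Snhg12 read 5.005 in FVB/NJ cortex against 6.91 and 6.96 in SJL/J and SWR/J, and Tmem181a 6.39 against 7.42 and 7.82. Without FVB/NJ the strain-mean difference of Snhg12 was -0.60 and that of Tmem181a -0.97. Ly86, a partner of an innate immune receptor, differed by -0.78 (limma adjusted p = 0.17), the endoplasmic reticulum calcium-binding protein gene Rcn1 by -0.75 (0.078), and the adhesion receptor gene Adgra3 by -0.61 (0.17). Tbce, which folds tubulin, read 7.25 to 7.33 in Swiss-derived and 7.67 to 7.87 in Castle-lineage cortex arrays and differed by -0.48 (limma adjusted p = 0.076). The mitochondrial genes Mtfmt, which formylates the initiator tRNA, and Ndufaf1, an assembly factor of complex I, differed by -0.57 and -0.56. All Mtfmt cortex arrays lay under log2 5, at 3.91 to 4.68. Its other probe set, 1457005_at, also dim, differed by 0.03 in cortex and -0.10 in accumbens. The complement regulator gene Susd4 differed by -0.54 and the actin regulator gene Nckap1 by -0.53, which passed within cortex (limma adjusted p = 0.038). A second bright Susd4 probe set, 1460593_at, differed by 0.14 in cortex and -0.29 in accumbens, with overlap in both. Dhrs7b, Zfp90, the exocyst gene Exoc5, Bloc1s5, Mcfd2 and Dcun1d4 had differences between -0.67 and -0.17. All Zfp90 cortex arrays lay under log2 5 too, at 4.04 to 4.65.

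**Figure D4:**
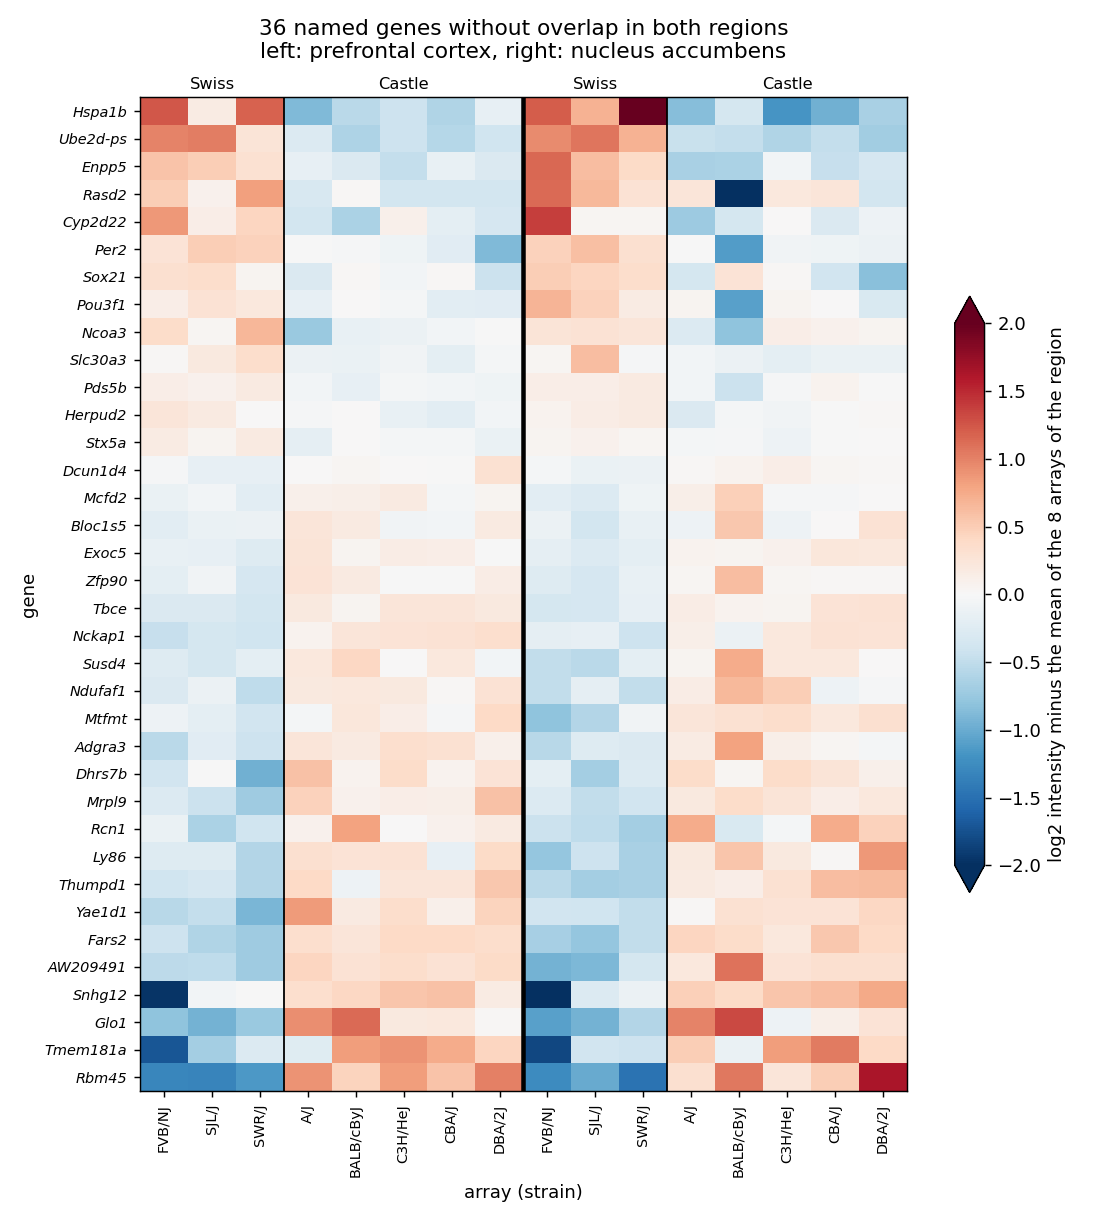
Rows are the 36 named genes without overlap in both regions, ordered by strain-mean difference, and columns are the 16 arrays. Colour gives the log2 intensity minus the mean of the 8 arrays of the same region, cut at 2 in either direction. Swiss-derived columns lie above Castle-lineage columns in the upper 13 rows and below them in the lower 23, which the choice of genes fixes. The BALB/cByJ accumbens array is far below the rest for Rasd2, Per2 and Pou3f1.

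Several of the genes that lay below were near each other in the RefSeq gene order. How often genes drawn from all 8795 placed genes fall this close was not counted. Ly86 and Fars2, 1.23 Mb apart, had 1 measured gene between them, Nrn1, and Bloc1s5 followed after 5 more. AW209491 and Tbce had 5 measured genes between them (0.632 Mb), and AW209491 and Yae1d1 had 3 (3.36 Mb). Nckap1 and Rbm45 had 12 between them (4.13 Mb). Nrn1 differed by 0.12 on strain means. The 5 genes between AW209491 and Tbce differed by -0.12 to -0.00027, the 3 between AW209491 and Yae1d1 by 0.11 to 0.19, the 5 between Ly86 and Bloc1s5 by -0.23 to 0.53 and the 12 between Nckap1 and Rbm45 by -0.20 to 0.38. None of these genes separated in both regions or passed limma on strain means. Lyrm4, on the outer side of Fars2, differed by 0.39 (limma adjusted p = 0.36). Glo1 and Hspa1b, in opposite directions, had 54 measured genes between them.

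Of the 61 separated features, 25 had no single gene name, where 1873 of all 10684 features had none. Among the 25, 18 lay below and 7 above, and 12 passed limma on strain means, out of 24 features that passed in all. Probe set 1436462_at had one of the 2 lowest adjusted p values, at 6.00, 5.60 and 5.51 in Swiss-derived cortex against 7.35 to 7.74 in Castle-lineage cortex, and 5.98, 5.79 and 6.44 in accumbens against 7.74 to 8.36. It differed by -1.90 (SE 0.13; limma adjusted p = 0.00099). Probe set 1438299_at differed by -1.40 with the same adjusted p. Probe set 1458719_at differed by -3.38 (limma adjusted p = 0.024), with 3.00 to 3.40 in the Swiss-derived arrays and 4.74 to 7.71 in the Castle-lineage arrays. Its Swiss-derived arrays all lay far below the filter level, so the size of that difference is not fixed. Of the other strains 14 lay nearer its Swiss-derived mean. Probe sets of types that can match several transcripts made up 27.9% of the 61 separated features and 27.5% of all features.

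The next question was whether the lineage difference depended on the region. Tested on accumbens minus cortex within each strain, limma called 2 of 10684 features (0.0187%). In both the groups separated in cortex and overlapped in accumbens. Trbv1, a variable segment of the T cell receptor beta locus, read 4.40, 4.36 and 3.81 in Swiss-derived cortex and 6.02, 6.41, 6.14, 6.04 and 6.47 in Castle-lineage cortex. All 8 accumbens arrays lay between 3.14 and 3.40, well below the filter level. The region term was 2.03 for Trbv1 (limma adjusted p = 0.021) and 1.96 for the unnamed probe set 1425854_x_at (0.0048), which read 4.04 to 4.47 and 6.05 to 6.34 in cortex and 2.64 to 2.70 in accumbens. Both passed the filter through cortex and lay far below the filter level in every accumbens array. With the groups overlapping there, the region term rests on the cortex difference. Whether an accumbens difference could show at that level was not tested. With 1 strain left out, or without the SJL/J accumbens array, between 0 and 2 features passed. The count was 0 without SJL/J, and in the whole comparison 301 features had an unadjusted p under 0.05 (2.82%).

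The Swiss-derived strains were then set against the 19 other paired strains, and the Castle lineage likewise. In these fits the MA/MyJ cortex array stood apart (score 0.56), and 3 of the other strains resembled a Castle-lineage strain in 1 region: NON/LtJ correlated with BALB/cByJ in accumbens (r = 0.68), C57BR/cdJ with C3H/HeJ in accumbens (r = 0.57) and C58/J with DBA/2J in cortex (r = 0.38), over 10684 features as deviations from the mean of 27 arrays. Limma called 11 features between Swiss-derived and other strains (0.103%; 1 higher and 10 lower), 8 without C57BR/cdJ and C58/J, 9 without MA/MyJ and 16 without NON/LtJ (1 higher and 15 lower). With no filter on dim features 356 passed, and most of them lay higher (321 higher and 35 lower), the opposite of the split above. Between Castle-lineage and other strains it called 0 (0%), with 451 features at an unadjusted p under 0.05 and a lowest adjusted p of 0.79, and without NON/LtJ also 0. Without the SJL/J accumbens array the Swiss-derived count was 6, and without FVB/NJ it was 30 (9 higher and 21 lower). Of the 11 features, Med20 and probe set 1426558_x_at passed in each of the 3 fits without 1 Swiss-derived strain. Both also passed without the SJL/J accumbens array, and each of the other 9 lost its call in at least 1 of these. Probe set 1436462_at, also among the 11, shares several gene symbols with 1426558_x_at in the platform annotation, so these 2 calls may not be separate.

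Fgf1, a fibroblast growth factor gene, was 1.76 lower in Swiss-derived than in other strains (limma adjusted p = 0.0093). It read 4.77 in FVB/NJ, 6.43 in SJL/J and 4.39 in SWR/J cortex, 7.05 to 7.44 in Castle-lineage cortex, and had a median of 6.90 in other cortex arrays. SJL/J lay close to the other strains, and in accumbens its 6.58 fell within the Castle-lineage range. Without FVB/NJ the difference was -1.32 and without SWR/J -1.47, and neither passed (limma adjusted p = 0.074 and 0.135). AW209491 was 0.91 lower than in other strains (limma adjusted p = 0.027), and 17 of the 19 other strains lay nearer the Castle-lineage mean; it did not pass without any 1 Swiss-derived strain (limma adjusted p = 0.071 to 0.173). Snhg12 was 1.27 lower (limma adjusted p = 0.041), with all 19 other strains nearer the Castle-lineage mean. Without FVB/NJ, its low strain, Snhg12 was 0.58 lower and did not pass (limma adjusted p = 0.253). The other named genes called here were Med20 (0.00077), a Mediator subunit, Zfp931 (0.038) and, higher, 1700094D03Rik (0.032), each with the limma adjusted p in parentheses. Med20 read 6.44 in FVB/NJ cortex, within the Castle-lineage range of 6.22 to 6.78, against 5.40 in SJL/J and 5.58 in SWR/J. Without FVB/NJ the Med20 difference from other strains went from -0.84 to -1.13. Zfp931 did not pass without any 1 Swiss-derived strain, and 1700094D03Rik passed without FVB/NJ (0.015) but not without SJL/J (0.088) or SWR/J (0.589), where its difference went from 0.45 to 0.30. Hspa1b split the other strains, 9 nearer the Swiss-derived and 10 nearer the Castle-lineage mean. Ube2d-ps was at the Castle-lineage level in 15 of the 19 and nearer the Swiss-derived level in C58/J, CE/J, KK/HlJ and BUB/BnJ.

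Gene lists by function and cell type held few members that separated. Across all features, 51.1% had a positive strain-mean difference, with a median of 0.0038. Of 16 measured genes of the circadian clock, 14 had a positive difference, with a median of 0.24, and 4 had an unadjusted p under 0.05 where the background was 5.69%; none passed after adjustment. After Per2, the largest differences were those of Hlf (0.59; SE 0.24), a clock output transcription factor gene, and the repressor gene Cry1 (0.48; SE 0.15), whose accumbens arrays separated and whose cortex arrays did not. Cry2 separated in cortex only. Dbp, another output gene, differed by 0.36 with an SE of 0.28, and Clock and Arntl, the positive arm, by -0.10 and -0.03. In accumbens the median of the list was 0.22, and 0.12 without the BALB/cByJ array. Per the design text all dissections were done within 1 morning window; the time of each strain within it is not given, and its part was not tested.

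**Figure D5:**
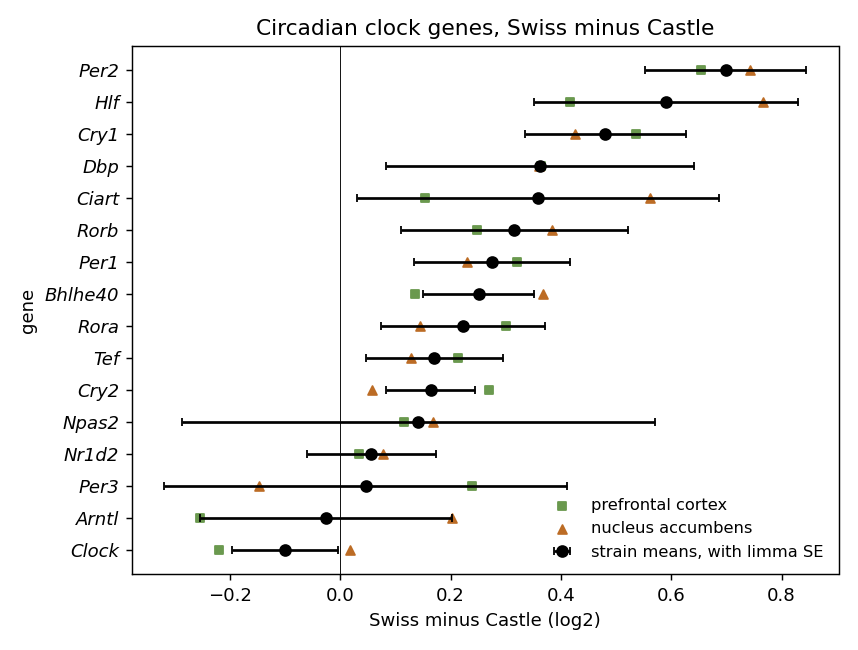
Swiss-derived minus Castle-lineage difference (log2) of 16 circadian clock genes. Black points with bars are strain means with the limma standard error, squares are prefrontal cortex and triangles nucleus accumbens. Of the black points 14 lie to the right of 0, and Per2, at 0.70, is farthest.

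Immediate early genes, induced by neuronal activity, had 11 of 14 positive differences with a median of 0.24, and none separated in both regions. Their accumbens median was 0.38 with all arrays and 0.04 without the BALB/cByJ array. The spiny neuron list had 18 of 20 positive differences and an accumbens median of 0.43, which was -0.03 without that array, while its cortex median was 0.01. The cortical excitatory neuron list had an accumbens median of 0.38, which was 0.08 without the SJL/J array. In its largest member, the vesicular glutamate transporter gene Slc17a7, cortex means were 10.69 ± 0.39 in Swiss-derived and 9.53 ± 0.78 in Castle-lineage strains (SD, n = 3 and 5), with overlap.

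The neuropeptide gene Nts, which lies in the septum and ventral forebrain list, separated in accumbens, at 7.12 ± 0.45 against 8.43 ± 0.40. In cortex it lay at 2.54 and 2.46, far below the filter level. On strain means it did not pass (-0.61, limma adjusted p = 0.33). The septum and ventral forebrain list had a median of -0.23 over 6 genes. H2-K1 and H2-D1, class I histocompatibility genes with highly variable sequence, had the largest differences of the 11 measured antigen presentation genes, 1.70 and 1.65, with SDs of 0.97 to 2.57 inside each group, and neither separated. Gabrg3, a GABA-A receptor subunit gene, differed by -1.03 (limma adjusted p = 0.73) and the serotonin receptor gene Htr1b by 0.76 (0.80). No member of the interferon, complement, glutamate receptor, potassium channel, oxidative phosphorylation or cytosolic ribosome lists separated in both regions. Glo1 was the only separated member of the 21 measured glutathione and detoxification genes, and none of the 7 blood genes was measured.

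Further families were looked at after the values were seen. Of 53 measured heat shock and DnaJ genes, Hspa1b alone separated in both regions, and the median was -0.0033. The small heat shock protein gene Hspb1 differed by 0.68 (SE 0.27; limma adjusted p = 0.81). Of 75 measured mitochondrial ribosomal protein genes, Mrpl9 alone separated, with 24 positive differences and a median of -0.06. Of 10 measured mitochondrial aminoacyl-tRNA synthetase genes, Fars2 alone did, with 2 positive differences and a median of -0.10. Hspa1b, Mrpl9 and Fars2 were the only members of these families that passed limma on strain means.

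Over the whole profile, each Swiss-derived strain was most like another Swiss-derived strain. As deviations from the mean of the 27 paired strains over 10684 features, the 3 Swiss-derived pairs correlated at 0.084 to 0.28 (median 0.19), the 10 Castle-lineage pairs at -0.33 to 0.33 (median 0.044), and the 15 pairs across lineages at -0.22 to 0.096 (median -0.037). C3H/HeJ and CBA/J were each other's nearest (r = 0.33), and A/J was most like C3H/HeJ, whereas BALB/cByJ was most like NON/LtJ (r = 0.42) and DBA/2J most like C58/J (r = 0.29). In cortex alone, BALB/cByJ was most like 129S1/SvImJ (r = 0.16). In accumbens alone it was most like NON/LtJ (r = 0.68), whose accumbens score of 2.98 was also among the lowest, and no Swiss-derived strain was most like another one. These correlations share the arrays, the normalization and the mean that was subtracted, and are given as a description. The median SD within a lineage was 0.16 for Swiss-derived and 0.18 for Castle-lineage strains in cortex, and 0.17 and 0.25 in accumbens, while 94 features in cortex and 87 in accumbens differed between lineages by at least 1 log2 unit.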

How the data were processed

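The data were the authors' deposited intensity values, 1 per probe set and array, on a linear scale. Per the submitters' processing notes they were made with GCRMA, a background correction and summary of probe intensities; the version and any separate normalization of the regions are not given in the sources used here, so each region was compared on its own scale. Values were taken to log2 without a pseudocount. Of 45015 probe sets, 64 controls were left out; 34880 had 1 gene symbol in the platform annotation, 923 had several and 9148 none, and only the first were named. Probe sets above log2 5 on 13 or more of the 54 arrays of the 27 strains with both regions stayed in, with the brightest standing for its gene. No column of per-sample values was left unused.

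Differences were tested 2-sided in limma 3.58.1 (R 4.3.3; lmFit, then eBayes) on strain means, within each region and on accumbens minus cortex, adjusted by Benjamini-Hochberg over all 10684 features, with a threshold of 0.05. When an accumbens array was left out, its strain's value was imputed in the strain means as the cortex value plus the mean region difference of the other strains, and dropped from the accumbens fit. Comparisons with 19 other strains used 1 fit of the 3 groups. Separation of groups was counted with no test. The fits were tested on simulated data.

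Named genes had 1 symbol, no overlap in both regions in 1 direction and a brighter group mean above log2 5, ranked by the smaller gap, up to 15 per direction, with up to 4 separated members of each list and the measured known strain allele and Glo1 segment genes. The other names were chosen after their values were seen. The members and lists were chosen with earlier results of these data known.

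The strain pairs the regions, since both came from the same animals per the design text; for 7 of the 8 strains the cortex array had its best match among 27 accumbens arrays in its own strain's. Promoters came from RefSeq (GRCm38.p6). Python 3.11.15, numpy 2.4.6, pandas 2.3.3 and matplotlib 3.10.9 were used. Alternatives are given in the closing section.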

Additional observations from a re-analysis of the deposited data

Results flagged for a closer look

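In the 78 groups of 5 Castle-lineage arrays looked at (1 gene in 1 region each), 15 had an array far from the other 4 for the width of the group. The cutoff gives about 1 in 20 for independent groups. These groups share arrays, and many of their genes were chosen by separation on the same values. The share over all features was not counted, so the 15 are only described. BALB/cByJ was the far array in 9 of the 15. In accumbens, where its spiny neuron list was low as a whole, BALB/cByJ was above the other strains for AW209491 (8.161), Adgra3 (6.515) and Cox7a2l (9.786), and below them for Gabra2 (8.252), Pds5b (8.707), Per2 (5.401) and Rasd2 (7.473). In cortex it was above them for Rasd2 (6.994) and Rcn1 (6.837). A/J was low for Cox7a2l (8.614) and Ncoa3 (4.698) in cortex and high for H2-Ea (6.694) in accumbens. CBA/J cortex was high for H2-Ea (7.809) and low for Ly86 (5.778), and DBA/2J cortex was low for Per2 (5.287). The part of tissue make-up in these values was not tested.

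The lineage difference itself differed between regions for Trbv1 (2.033; limma adjusted p = 0.021) and for probe set 1425854_x_at (1.96; limma adjusted p = 0.0048), accumbens minus cortex. All 8 accumbens arrays of both lay far below the filter level of log2 5, and the groups overlapped there, so both values rest on the cortex difference. Whether an accumbens difference could show at that level was not tested.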

How the results depend on the processing

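Quantile normalization again within each region and centring on the median moved no count of calls by over 1.5 times. With no filter on dim features, 92 features separated in both regions, 356 passed between Swiss-derived and other strains (321 higher and 35 lower, against 1 and 10 of 11 with the filter), 1 between Castle-lineage and other strains and 1 by region. With a filter at log2 7, 35 separated, 12 passed on strain means, 2 in accumbens and 0 by region. With values under log2 5 raised to it, 13 passed in cortex and 1 by region. With every kept probe set, 18 passed between Swiss-derived and other strains. Without probe sets of types that can match several transcripts, 12 passed in cortex and 0 by region, and with trend and robust variance 0 by region. At a threshold of 0.01, 11 passed on strain means, 10 in cortex, 2 in accumbens, 1 by region and 3 between Swiss-derived and other strains. Without the BALB/cByJ accumbens array, 13 passed in accumbens and 101 separated. Without the SJL/J accumbens array, 0 passed in accumbens, 0 by region and 6 between Swiss-derived and other strains. With the spread shared with the other strains, 1 passed on strain means, 7 in cortex, 0 in accumbens and 0 by region. Over the 8 fits without 1 strain, the counts ranged from 14 to 35 on strain means, 11 to 20 in cortex, 0 to 13 in accumbens, 0 to 2 by region, 8 to 30 between Swiss-derived and other strains, 0 to 0 between Castle-lineage and other strains, and 74 to 213 separated. Apart from settings with fewer strains or features, the cause was not tested. The fits without C57BR/cdJ and C58/J, without MA/MyJ and without NON/LtJ, and the values of single genes against other strains without 1 strain or array, were chosen after seeing the data.

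With the strain as a replicate block over the 16 arrays (consensus correlation 0.165), 35 features passed, and with no replicate block 48, against 24 on strain means.

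Some differences that never passed changed sign. H2-Ea was -0.0067 after quantile normalization, Stx5a -0.0415 and Nnt -0.0512 without the probe set types above, and Wdfy1, Ide and H2-Ea 0.0824, -0.00504 and -0.00476 without the BALB/cByJ accumbens array. Without 1 strain in turn, H2-Ea ranged from -0.0492 to 0.0789, Nnt from -0.0231 to 0.176, Wdfy1 from -0.0956 to 0.0367, Ide from -0.0473 to 0.0789, Gabra2 from -0.134 to 0.117, Cwc22 from -0.193 to 0.0717 and Btbd9 from -0.273 to 0.0453.

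With 1 array per strain and region, signal over background is known only through the filter, and differences of probe sets near log2 5 are the least certain.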
